A study of Mus musculus with 2 samples.

Results

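Collagens are the main structural proteins of connective tissue, built from 3 chains that wind into a triple helix. Every gene of a collagen chain was taken here by its symbol (Col, a type number, a and a chain number), which picked 44 of the 31054 gene rows counted in both libraries. By the family each chain is known to belong to, they comprised 11 fibrillar chains, 6 basement membrane chains of type IV, 9 FACIT chains (fibril-associated collagens with interrupted triple helices), 6 chains of type VI, 3 short-chain network chains (types VIII and X), 2 multiplexins (types XV and XVIII), 4 transmembrane chains, 1 anchoring fibril chain (Col7a1) and 2 others (Col26a1 and Col28a1).

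The study sequenced single cells from mouse mammary tumours that grew in a strain built to trace adipocytes. All mice were C57BL/6 inAd-Chaser-mTmG animals, which carry Adiponectin-rtTA, TRE-Cre and the Rosa26 mT/mG reporter; doxycycline switches adipocytes, and whatever cells come from them, from membrane tdTomato to membrane EGFP. Tumour fibroblasts were isolated and sorted as EGFP-positive and tdTomato-negative, giving 1 library from a Met-1 transplant and 1 library from a PyMT tumour, the spontaneous tumour of a transgenic line. For the transplant, the sample's label gives Met-1 cells and the design text gives EO771 cells; the label is followed here. How many mice were used, their age and sex and the time since doxycycline were not stated. Any activity of the Adiponectin promoter outside adipocytes would mark other cells too.

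With 1 library per tumour there is no replicate, so no test was made and no p-value is given. Levels are unique molecular identifiers (UMIs, counts of captured RNA molecules) per 1000000 UMIs of the cell class (CPM), with exact Poisson 95% intervals that cover counting error only. UMIs were not divided by gene length, so a level compared between genes is a number of captured molecules. After filtering, the Met-1 library kept 2112 of 2451 barcodes with a median of 7684 UMIs per cell, the PyMT library kept 589 of 619 with a median of 3470, and the libraries shared 0 barcodes. Cells were put into classes from marker UMIs without any collagen, so the collagen levels below played no part in forming the classes.

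The Met-1 classes were 103 Tnc-rich fibroblasts (median 22457 UMIs per cell), 86 Clec3b-rich fibroblasts (13178.5), 60 fibroblasts rich in neither gene, 103 pericytes (11179), 38 luminal cells (6560.5) and 1677 immune cells (6967). The PyMT library held 9 Clec3b-rich fibroblasts, 1 Tnc-rich fibroblast, 84 luminal cells (17009.5), 472 immune cells and 0 pericytes. In the genes that formed the classes, which are therefore no check of their names, Tnc, a matricellular protein, stood at 669 CPM in Tnc-rich and 3.36 CPM in Clec3b-rich fibroblasts, Clec3b (tetranectin) at 6.62 and 2743 CPM, and Rgs5, a pericyte signalling regulator, at 5384 CPM in pericytes. Of the 5 adipocyte markers, 0 had a UMI in Clec3b-rich fibroblasts, and the whole Met-1 library held 22 UMIs of them over all kept cells. The EGFP transcript stood at 2869 CPM in Tnc-rich fibroblasts, 1546 CPM in Clec3b-rich fibroblasts, 4765 CPM in pericytes, 203 CPM in Met-1 luminal cells and 3764 CPM in Met-1 immune cells.

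Fibrillar collagens (types I, II, III, V, XI, XXIV and XXVII) assemble into the banded fibrils that bear load, and type I is made of Col1a1 and Col1a2 chains. Type IV forms the sheet-like network of basement membranes under epithelia and around vessels, where pericytes sit. FACIT collagens such as types IX, XII and XIV lie on the surface of fibrils, type VI forms beaded filaments close to cells, type VIII forms short-chain networks known from vessel walls, and types XV and XVIII carry sugar chains and lie in basement membrane zones.

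Col4a1 and Col4a2, the chains of the ubiquitous type IV network, are transcribed away from each other and their promoters overlap. In GENCODE M21 on mm10, Col4a1 occupies chr8:11198423-11312826 on the minus strand and Col4a2 chr8:11312805-11449287 on the plus strand, so that their annotated starts are 21 bp apart. The RefSeq promoter windows (GRCm38.p6, 250 bases before to 50 after each start) share the 78 bases chr8:11312777-11312854. Both are printed 5′ to 3′ on the gene's own strand, with capitals marking the CCAAT box, the GC box GGGCGG and the TATA box TATAAA on either strand. They are shown because these 2 chains held the same order in the fibroblast classes and pericytes described below. Any part of the promoter overlap in that order was not tested.
Col4a1 (chr8:11312777-11313076, minus strand): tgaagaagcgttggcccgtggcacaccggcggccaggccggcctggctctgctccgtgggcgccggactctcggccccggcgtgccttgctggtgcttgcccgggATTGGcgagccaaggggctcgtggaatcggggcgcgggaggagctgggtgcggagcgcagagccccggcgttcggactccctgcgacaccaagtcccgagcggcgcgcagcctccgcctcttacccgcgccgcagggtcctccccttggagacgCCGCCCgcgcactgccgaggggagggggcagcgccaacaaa
Col4a2 (chr8:11312555-11312854, plus strand): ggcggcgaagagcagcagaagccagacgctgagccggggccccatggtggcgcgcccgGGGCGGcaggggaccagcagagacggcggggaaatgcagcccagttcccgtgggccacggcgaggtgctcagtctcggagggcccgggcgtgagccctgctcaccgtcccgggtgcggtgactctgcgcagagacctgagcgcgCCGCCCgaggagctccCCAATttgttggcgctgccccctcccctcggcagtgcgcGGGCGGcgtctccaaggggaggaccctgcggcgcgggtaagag
The remaining windows belong to chains that the comparisons below turn on. They are the abundant fibrillar chains Col1a2 and Col3a1, the short-chain Col8a1 and the type IX chain Col9a2 of luminal cells. Col8a1 set Tnc-rich apart from Clec3b-rich fibroblasts.
Col1a2 (chr6:4505368-4505667, plus strand): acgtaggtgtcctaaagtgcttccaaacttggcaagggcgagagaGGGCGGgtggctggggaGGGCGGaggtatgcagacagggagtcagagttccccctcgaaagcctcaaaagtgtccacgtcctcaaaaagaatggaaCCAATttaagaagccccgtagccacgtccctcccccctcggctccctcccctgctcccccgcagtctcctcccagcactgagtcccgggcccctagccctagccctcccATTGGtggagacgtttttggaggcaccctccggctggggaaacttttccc
Col3a1 (chr1:45311288-45311587, plus strand): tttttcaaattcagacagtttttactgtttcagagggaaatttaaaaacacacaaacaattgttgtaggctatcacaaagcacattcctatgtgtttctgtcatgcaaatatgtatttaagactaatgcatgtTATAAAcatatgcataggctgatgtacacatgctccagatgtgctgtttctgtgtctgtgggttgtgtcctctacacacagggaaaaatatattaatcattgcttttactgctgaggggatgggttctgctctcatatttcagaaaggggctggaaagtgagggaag
Col8a1 (chr16:57754688-57754987, minus strand): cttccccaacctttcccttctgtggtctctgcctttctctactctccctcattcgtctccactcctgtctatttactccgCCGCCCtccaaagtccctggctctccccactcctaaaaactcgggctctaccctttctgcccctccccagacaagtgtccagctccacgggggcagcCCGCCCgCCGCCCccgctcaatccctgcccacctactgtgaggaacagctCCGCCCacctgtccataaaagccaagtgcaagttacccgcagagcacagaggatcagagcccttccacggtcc
Col9a2 (chr4:121039316-121039615, plus strand): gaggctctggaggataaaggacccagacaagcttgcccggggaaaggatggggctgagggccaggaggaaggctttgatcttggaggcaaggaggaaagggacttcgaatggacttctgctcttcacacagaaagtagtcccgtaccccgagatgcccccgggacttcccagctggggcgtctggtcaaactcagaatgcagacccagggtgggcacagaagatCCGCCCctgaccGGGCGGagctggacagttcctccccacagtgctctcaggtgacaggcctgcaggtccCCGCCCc

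The table of promoters held 38 windows for 35 of the 44 chains. CCAAT, searched on both strands, occurred in 13 of the 38 windows (34.2%), against 37.4% of all 32851 promoters. GGGCGG occurred in 23 windows (60.5%), against 35.7%, and TATAAA in 5 windows (13.2%), against 13.6%. Of the windows printed, Col1a2 held 2 CCAAT and 2 GGGCGG, Col8a1 4 GGGCGG and Col3a1 1 TATAAA. These are matches of letters, not sites shown to be bound.

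Tnc-rich fibroblasts held the highest collagen level of any class. Collagen chains summed to 51432 CPM there (51137 to 51728, from 116498 UMIs), to 33006 CPM in Clec3b-rich fibroblasts (32681 to 33334), to 37622 CPM in fibroblasts rich in neither gene and to 25889 CPM in pericytes (25600 to 26182). Among single Tnc-rich cells the sum ran from 5667 to 182536 CPM with a median of 48744, and the median Clec3b-rich cell stood at 27150 CPM. Immune cells of the same library stood at 183 CPM (176 to 191). The 44 chains were also ranked over the classes, with fibroblasts rich in neither gene left out. Of them, 19 were highest in Tnc-rich fibroblasts, 7 in pericytes, 4 in luminal cells, 3 in Clec3b-rich fibroblasts and 1 in immune cells (Col11a2, with 20 UMIs in 20 cells). The other 10 had under 20 UMIs in every ranked class. This ranking was not made over all genes, so the counts describe the chains without a background to set them against. The place of Col11a2 rests on the depth of the immune class, 13354236 UMIs. In luminal cells, Clec3b-rich fibroblasts and pericytes (767877, 1190139 and 1179359 UMIs), a floor of 3 UMIs for a count of 0 lies above its immune level. Col19a1 had 0 UMIs in both libraries and Col2a1, the cartilage fibrillar chain, 0 in Met-1.

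**Figure D1:**
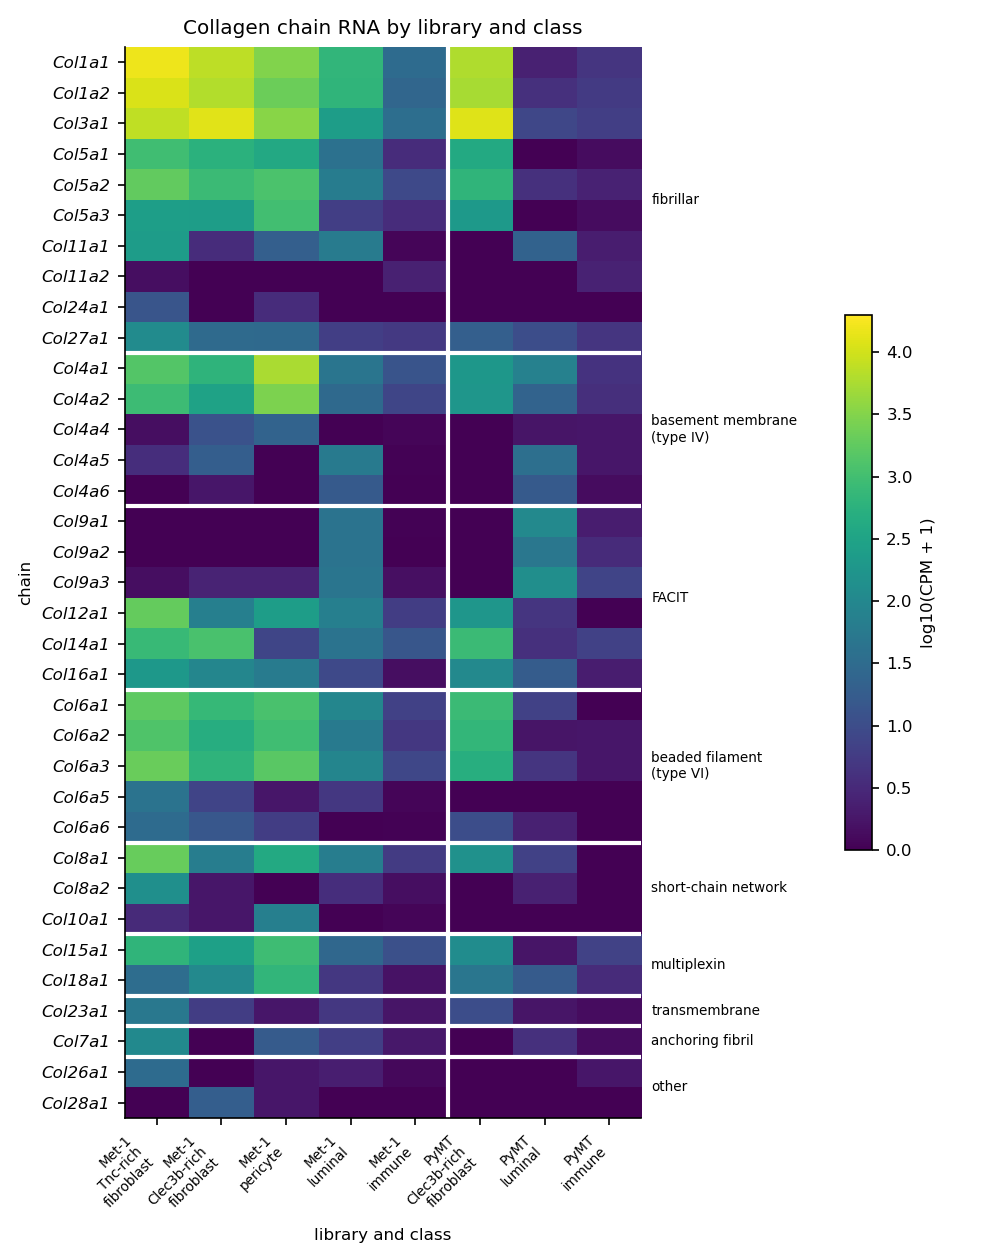
Colour map of log10(CPM + 1) for the collagen chains with at least 20 UMIs in a plotted class (rows), in the Met-1 cell classes and the PyMT Clec3b-rich, luminal and immune classes, grouped by collagen family. Col1a1 runs from 15548 CPM in Tnc-rich fibroblasts to 30.6 CPM in immune cells, and the type IX chains have their highest levels in luminal cells.

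The make-up of the collagen RNA differed between the classes, as did its amount. Fibrillar chains made up 73.9% of collagen UMIs in Tnc-rich fibroblasts, 85.9% in Clec3b-rich fibroblasts and 43.7% in pericytes. Type IV chains made up 4.5%, 2.89% and 32.6%, FACIT chains 5.61%, 4.03% and 1.23%, and type VI chains 10.1%, 5.72% and 14.3%. Short-chain collagens reached 4.16% in Tnc-rich fibroblasts against 0.20% in Clec3b-rich fibroblasts, with 3.42% in fibroblasts rich in neither gene. Multiplexins reached 6.26% in pericytes, 1.35% in Tnc-rich fibroblasts, 1.17% in Clec3b-rich fibroblasts and 3.32% in fibroblasts rich in neither gene. Fibroblasts rich in neither gene lay between pericytes and the other fibroblasts in type IV, at 10.9% of collagen UMIs.

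**Figure D2:**
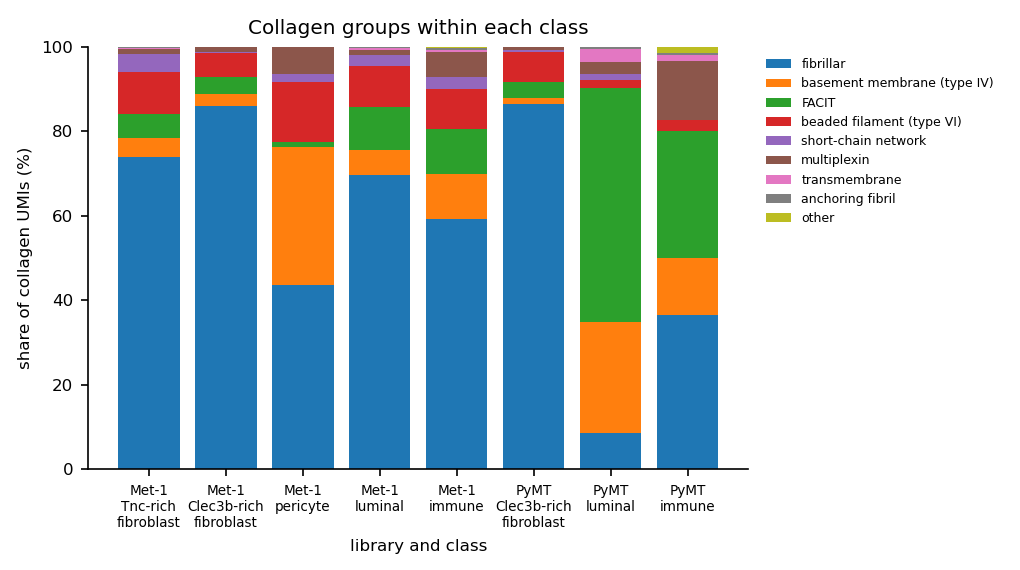
Share of collagen UMIs (percent) by family in each class. Pericytes carry 32.6% type IV, and the Met-1 luminal bar is set largely by 1 cell that holds 1261 of the class's 1342 fibrillar UMIs.

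Among fibrillar chains, type I and type III had opposite orders in the fibroblast classes. Col1a1 (chr11:94936224-94953042) stood at 15548 CPM (15386 to 15711) in Tnc-rich fibroblasts, 7583 CPM (7428 to 7741) in Clec3b-rich fibroblasts and 3086 CPM (2986 to 3187) in pericytes, and the median cell at 14751, 5559 and 2075 CPM. Col1a2 (chr6:4504814-4541544), its partner in the type I molecule, stood at 11252, 6409 and 2127 CPM. Col3a1 (chr1:45311538-45349706), the single chain of type III collagen, had the opposite order in fibroblasts, at 7803 CPM (7689 to 7919) in Tnc-rich and 12670 CPM (12469 to 12874) in Clec3b-rich cells, with 3424 CPM in pericytes. The ratio of Col3a1 to Col1a1 UMIs was 0.502 in Tnc-rich fibroblasts, 1.67 in Clec3b-rich fibroblasts and 1.11 in pericytes. The ratio of Col1a1 to Col1a2 moved far less, at 1.38, 1.18 and 1.45.

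Type V and type XI chains, which co-assemble with the major fibrils, split by chain. Col5a1 stood at 947, 562 and 399 CPM in Tnc-rich fibroblasts, Clec3b-rich fibroblasts and pericytes, and Col5a2 at 1858, 853 and 1207 CPM. Col5a3, the less widely expressed type V chain, was instead highest in pericytes, at 1012 CPM against 260 and 251 CPM. Fibroblasts rich in neither gene lay between, with 380 Col5a3 UMIs among 714098. The ratio of Col5a3 to Col5a1 was 2.53 in pericytes, 0.275 in Tnc-rich and 0.447 in Clec3b-rich fibroblasts. It was 0.718 in fibroblasts rich in neither gene. Col11a1 stood at 233 CPM (528 UMIs) in Tnc-rich fibroblasts, at 18.7 CPM in pericytes and at 2.52 CPM (3 UMIs) in Clec3b-rich fibroblasts. Col27a1 reached 116, 29.4 and 28 CPM, and Col24a1 12.4 CPM in Tnc-rich fibroblasts.

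Col3a1 and Col5a2 are neighbours on chromosome 1 with 24614 bp between them, and they did not share an order. Col5a2 was 2.18-fold higher in Tnc-rich than in Clec3b-rich fibroblasts, whereas Col3a1 was 1.62-fold lower (1.59 to 1.66).

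A chain counted as apart between 2 classes if CPM + 10 differed by 2-fold or more and 1 class or both held 50 UMIs of it. Between Tnc-rich and Clec3b-rich fibroblasts, 18 of 25 chains with enough UMIs were higher in Tnc-rich cells and 1 was lower; over all 6121 genes compared, 9.12% were higher, 6.71% lower and 15.8% apart in either direction. The median log2 ratio was 1.21 over the 25 chains and 0.20 over all genes compared. A chain with 50 UMIs in Tnc-rich cells alone could hardly fail to stand apart, so the 17 chains with 50 UMIs in both classes were also counted. Of these, 11 were higher and 1 lower, where 153 and 204 of the 3271 genes so restricted were. The median log2 ratio was 1.11 over these chains against 0.12 over all genes so restricted. The abundant Col1a2, Col3a1, Col5a1, Col5a3 and Col14a1 were not apart.

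The widest gaps were in chains that Clec3b-rich fibroblasts nearly lacked. Col8a1 (chr16:57624258-57754737), a short-chain collagen, was 30.9-fold higher in Tnc-rich fibroblasts (24.7 to 39.3), at 2000 CPM (1943 to 2059) against 64.7 CPM (51.1 to 80.9). Its partner Col8a2 stood at 139 against 0.84 CPM, a ratio of 165 (29.4 to 6537) that rests on 1 UMI in the Clec3b-rich class. Col12a1 was 26.8-fold higher (21.6 to 33.6), Col11a1 92.5-fold (31.5 to 450), Col23a1, a transmembrane chain, 10.2-fold (4.53 to 28.2), and Col6a5 6.37-fold. Col7a1, which anchors epithelium to stroma in skin, stood at 108 against 0 CPM and was at least 42.9-fold higher against a floor of 3 UMIs, and Col26a1 at 30.9 against 0 CPM was at least 12.3-fold higher.

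The gap in Col8a1 and Col12a1 was one of how many cells held them as well as how much. Before thinning, 100% of Tnc-rich and 10.5% of Clec3b-rich cells had a Col8a1 UMI, and 98.1% and 23.3% had a Col12a1 UMI. With every cell thinned to 1000 UMIs, the shares were 76.7% and 6.10% for Col8a1 and 68.9% (59.1 to 77.7) and 4.88% (1.35 to 12.0) for Col12a1. In lymphocytes of the same library, which are not known to make these chains, the thinned shares were 0.564% for Col8a1 and 0.282% for Col12a1. The Clec3b-rich class holds 1 cell with 29.9% of its Col8a1 UMIs. Fibroblasts rich in neither gene, with Tnc at 25.2 CPM, also held both chains, at 875 Col8a1 and 629 Col12a1 UMIs among 714098. Neither chain was thus particular to Tnc-rich fibroblasts.

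A middle group of chains was 2-fold to 4-fold higher in Tnc-rich fibroblasts. It held Col27a1 (3.95-fold), the type VI chains Col6a3 (3.26-fold, 3.02 to 3.53), Col6a2 (2.71-fold) and Col6a1 (2.30-fold), the type IV chains Col4a2 (3.06-fold) and Col4a1 (2.24-fold, 2.07 to 2.43), Col15a1 (2.36-fold), Col16a1 (2.14-fold) and Col1a1 (2.05-fold, 2.0 to 2.10). Col1a1 sits just inside the 2-fold limit and Col1a2, at 1.76-fold (1.71 to 1.80), just outside it. Col18a1, whose C-terminal fragment is endostatin, was the chain lower in Tnc-rich fibroblasts, by 3.07-fold (2.29 to 4.13), at 34.0 against 104 CPM.

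**Figure D3:**
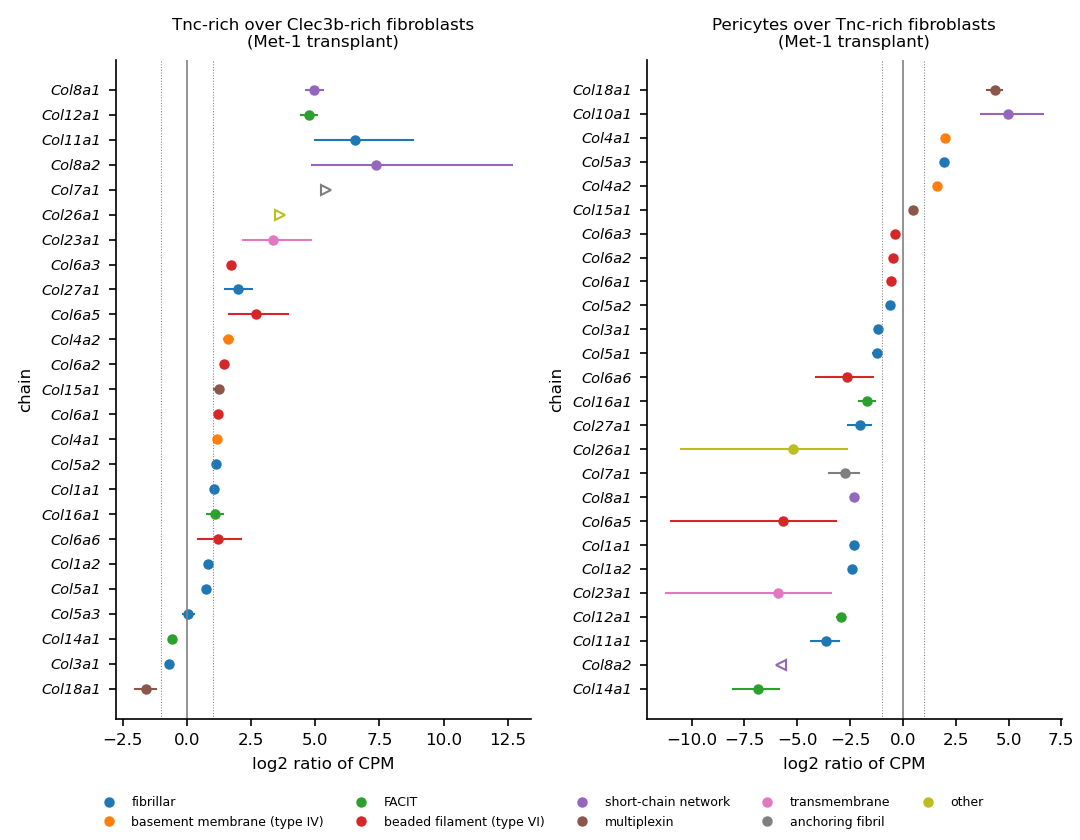
Log2 ratio of CPM between Met-1 classes for each chain compared (points, with lines for 95% counting intervals and open triangles for bounds where 1 class had 0 UMIs), Tnc-rich over Clec3b-rich fibroblasts and pericytes over Tnc-rich fibroblasts. Col8a1, Col12a1 and Col11a1 lie far to the Tnc-rich side, whereas Col4a1, Col4a2, Col5a3 and Col18a1 lie to the pericyte side.

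Smooth muscle markers were also higher in the Tnc-rich class. The list of 4 summed to 1539 CPM there (3 of 4 detected), to 27.7 CPM in Clec3b-rich fibroblasts (2 of 4), to 1032 CPM in fibroblasts rich in neither gene and to 2744 CPM in pericytes (4 of 4), and the Tnc-rich cells were also the deepest. The part of either in the collagen differences was not tested. The pericyte list summed to 163 CPM in Tnc-rich and 137 CPM in Clec3b-rich fibroblasts, against 9368 CPM in pericytes.

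The main type IV chains, Col4a1 and Col4a2, were highest in pericytes. Col4a1 stood at 5612 CPM (5478 to 5749) in pericytes, 1409 CPM (1361 to 1459) in Tnc-rich and 628 CPM (584 to 675) in Clec3b-rich fibroblasts, and the median cell at 4902, 1051 and 354 CPM. Col4a2 followed at 2796, 902 and 295 CPM. Pericyte Col4a1 was 3.98-fold (3.82 to 4.16) above Tnc-rich and 8.93-fold (8.28 to 9.64) above Clec3b-rich fibroblasts, and Col4a2 3.1-fold and 9.48-fold. The ratio of Col4a1 to Col4a2 UMIs stayed between 1.56 and 2.13 in these 3 classes. The minor type IV chains were rare: Col4a4 stood at 22.1 CPM in pericytes, where Col4a5 had 0 UMIs. Col4a5 was highest in luminal cells, at 58.6 CPM (45 UMIs in 12 cells), with 18.5 CPM in Clec3b-rich fibroblasts.

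Across cells, the rank correlation of chain pairs varied by pair and class. Spearman's rho of Col4a1 with Col4a2 per-cell CPM was 0.846 over 103 Tnc-rich fibroblasts, 0.724 over 86 Clec3b-rich fibroblasts and 0.744 over 103 pericytes. For Col1a1 with Col1a2 it was 0.894, 0.891 and 0.708, and for Col6a1 with Col6a2 0.685, 0.560 and 0.668. For Col6a1 with Col6a3 it was 0.681, 0.362 and 0.456, and for Col5a1 with Col5a2 0.339, 0.642 and 0.367. Some chains of 1 molecule thus correlated weakly. For Col3a1 with Col1a1, chains of different fibrillar molecules, it was 0.722, 0.814 and 0.456, and for Col1a1 with Col4a1, chains of different networks, 0.088, 0.296 and 0.393. Col8a1 and Col12a1 gave 0.630 in Tnc-rich fibroblasts and 0.349 in pericytes. These are descriptions of cells that share a library and vary in depth, not tests.

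Against Tnc-rich fibroblasts, pericytes were higher in 5 and lower in 16 of 26 chains, where 5.86% and 8.49% of the 6091 genes compared were higher and lower. The higher chains were Col4a1, Col4a2, Col5a3 (3.89-fold, 3.52 to 4.3), Col18a1 (20.2-fold, 16.0 to 25.9) and Col10a1. Col18a1 had a UMI in 92.2% of pericytes and 28.2% of Tnc-rich fibroblasts, at 687 (640 to 736) against 34.0 CPM. Col10a1, the network chain of hypertrophic cartilage, rests on 3 pericytes: 54 of its 82 UMIs came from 1 cell, and its level fell from 69.5 to 24.1 CPM without that cell. The median log2 ratio of the 26 chains was -1.49, against 0.02 over all genes compared. Of the 16 chains with 50 UMIs in both classes, 4 were higher and 7 lower, with a median of -0.59 against 0.14. Among the 3691 genes so restricted, 188 were higher and 120 lower.

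Among the chains lower in pericytes were members of the FACIT, fibrillar and short-chain families. Col14a1 was 115-fold lower (58.0 to 266), Col12a1 7.64-fold (6.79 to 8.63), Col11a1 12.5-fold, Col1a2 5.29-fold, Col1a1 5.04-fold (4.87 to 5.22) and Col3a1 2.28-fold. The short-chain Col8a1 was 4.95-fold lower, and Col8a2, with 0 UMIs in pericytes, at least 54.5-fold lower. Col5a2, the 3 main type VI chains and Col15a1 (1.41-fold higher) were not apart. Type VI levels in pericytes and Tnc-rich fibroblasts were within 2-fold of each other, with Col6a3 at 1578 against 2072 CPM, Col6a1 at 1162 against 1721 CPM and Col6a2 at 956 against 1305 CPM.

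Against Clec3b-rich fibroblasts, pericytes were higher in 9 and lower in 4 of 18 chains, where 11.7% and 11.4% of 4486 genes were. Besides type IV, the higher chains included Col18a1 (6.59-fold), Col8a1 (6.25-fold), Col5a3 (4.03-fold), Col12a1 (3.50-fold), Col15a1 (3.33-fold) and Col6a3 (2.48-fold). Col14a1 (172-fold), Col3a1 (3.70-fold), Col1a2 (3.01-fold) and Col1a1 (2.46-fold) were lower.

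The 2 abundant FACIT chains separated the classes in different ways. Col12a1 (chr9:79598991-79718831) stood at 1912 CPM (1856 to 1970) in Tnc-rich fibroblasts, 71.4 CPM (57.0 to 88.3) in Clec3b-rich fibroblasts and 250 CPM (222 to 280) in pericytes. Col14a1 (chr15:55307750-55520803) stood at 777 CPM (741 to 814), 1165 CPM (1104 to 1228) and 6.78 CPM (2.93 to 13.4), with UMIs in 89.3%, 81.4% and 6.8% of cells. The ratio of Col12a1 to Col14a1 was therefore 2.46 in Tnc-rich fibroblasts, 0.061 in Clec3b-rich fibroblasts and 36.9 in pericytes. Pericyte Col14a1 rests on 8 UMIs in 7 cells. For comparison, it stood at 2.12 CPM (1.06 to 3.8) in lymphocytes. Col16a1 was the next FACIT chain, at 196, 91.6 and 61.1 CPM.

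**Figure D4:**
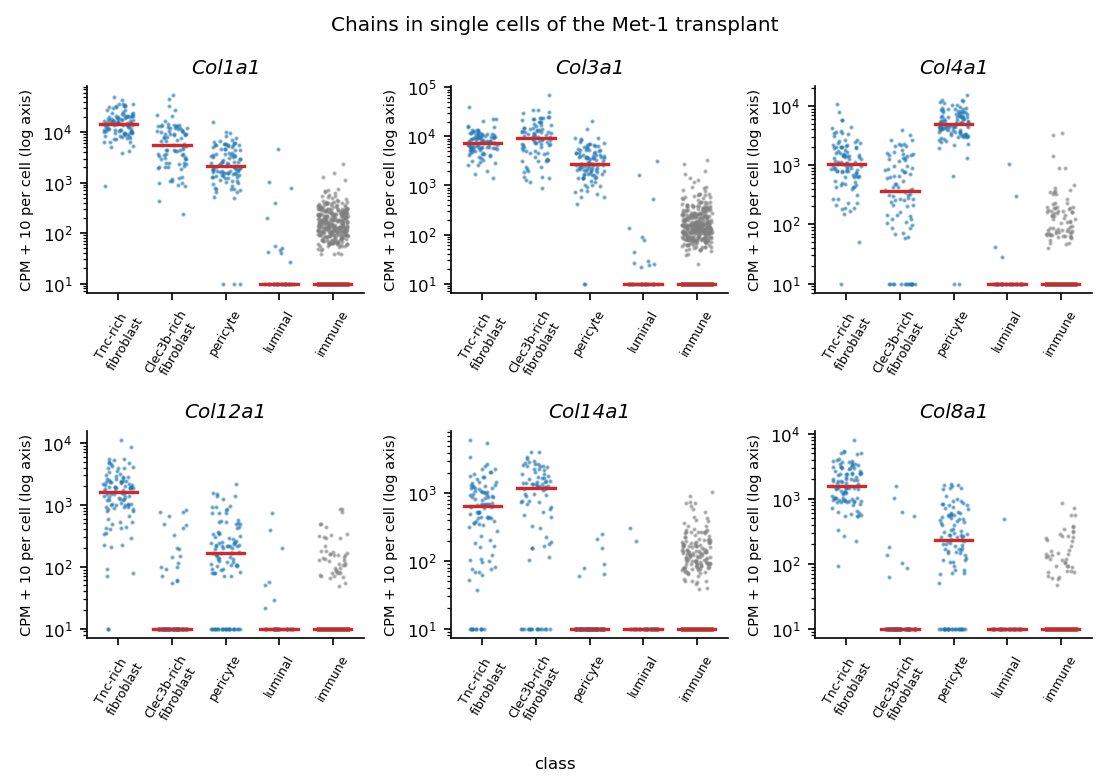
CPM + 10 of 6 chains in single Met-1 cells (log axis), 1 point per cell and a red line at the class median, for the Tnc-rich, Clec3b-rich, pericyte, luminal and immune classes. Without the added 10, the median Tnc-rich cell stands at 1605 CPM of Col12a1 and the median Clec3b-rich cell at 0, while for Col14a1 the medians are 639 and 1180.

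Type VI and the multiplexins followed different partners. Col6a1, Col6a2 and Col6a3, the chains of the common type VI molecule, stood at 1721, 1305 and 2072 CPM in Tnc-rich fibroblasts, their highest class, and at 749, 482 and 635 CPM in Clec3b-rich fibroblasts, below pericytes. The rarer Col6a5 and Col6a6 stood at 42.8 and 31.4 CPM in Tnc-rich and 6.72 and 13.4 CPM in Clec3b-rich fibroblasts. Col15a1 stood at 934 CPM in pericytes, 661 in Tnc-rich and 281 in Clec3b-rich fibroblasts. Fibroblasts rich in neither gene held 762 Col15a1 UMIs among 714098, a higher level than the 1101 among 1179359 of pericytes. The ratio of Col15a1 to Col18a1 was 1.36 in pericytes, 19.5 in Tnc-rich and 2.69 in Clec3b-rich fibroblasts. Col28a1 stood at 18.5 CPM in Clec3b-rich fibroblasts, its highest class.

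Luminal cells carried another set of collagens, the type IX chains. In the PyMT library Col9a3 stood at 134 CPM (115 to 155, 182 UMIs in 57 of 84 cells), Col9a1 at 105 CPM (88.5 to 124, 143 UMIs) and Col9a2 (chr4:121039385-121055322) at 49.96 CPM (38.8 to 63.3, 68 UMIs). In Met-1 luminal cells they stood at 45.6 CPM (35 UMIs in 16 of 38 cells), 43.0 CPM (33 UMIs in 11 cells) and 41.7 CPM (32 UMIs in 11 cells). Together these 3 chains form type IX, a FACIT collagen best known from cartilage. In Met-1 Tnc-rich fibroblasts, Clec3b-rich fibroblasts and pericytes Col9a1 and Col9a2 had 0 UMIs and Col9a3 1, 2 and 2 UMIs.

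The 4 chains with 50 UMIs in PyMT luminal cells were higher there than in immune cells, where 16.4% of the 5752 genes compared were. None of the 44 chains (0) had 50 UMIs in both classes, so each was compared only because it was high in luminal cells and the count is no support. They were Col9a1 (86.5-fold, 29.0 to 425, against 3 immune UMIs), Col4a1 (23.4-fold, 11.4 to 55.6), Col9a3 (20.7-fold, 12.4 to 36.9) and Col9a2 (20.6-fold, 8.98 to 58.0). With cells thinned to 1000 UMIs, 8.86% of PyMT luminal cells (3.64 to 17.4) and 0.218% of PyMT immune cells (0.0055 to 1.21) had a Col9a3 UMI; before thinning these were 67.9% and 1.69%. The cartilage and tendon list of 4 markers summed to 228 CPM in PyMT and 544 CPM in Met-1 luminal cells. In both, 2 of 4 were detected, and Tnmd and Acan had 0 UMIs. In 37 of the Met-1 luminal cells, the marker Sox9 alone gave 349 of the 358 UMIs of the list. The part of this list in the type IX levels was not tested. The list of basal epithelial markers summed to 251 CPM (4 of 4) in PyMT luminal cells and 24.7 CPM in Met-1 luminal cells.

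PyMT luminal cells also held type IV chains. Col4a1 stood at 75.7 CPM (103 UMIs), Col4a5 at 36.0 CPM (49 UMIs), Col4a2 at 22.0 CPM and Col4a6 at 15.4 CPM, and the ratio of Col4a1 to Col4a2 was 3.43. FACIT chains made up 55.3% of the collagen UMIs of these cells, type IV chains 26.4% and fibrillar chains 8.53%, out of a collagen total of 569 CPM (529 to 610). Col1a1 stood at 1.47 CPM (2 UMIs) there, so the luminal collagen of this tumour was almost free of type I.

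In the Met-1 luminal class, 1 cell set nearly all fibrillar values. That cell had 107951 UMIs, the most in its class, and held 505 of 519 Col1a1, 494 of 499 Col1a2, 177 of 191 Col3a1, 71 of 71 Col6a1 and 51 of 51 Col8a1 UMIs. It carried epithelial and stromal RNA side by side, with 51 UMIs of Krt8, 154 of Krt18 and 156 of Epcam beside 81 of Dcn, 446 of Sparc and 44 of Tnc. Its fibroblast list summed to 1742 CPM and its luminal list to 4974 CPM, against 34.9 and 7899 CPM in the other 37 cells. Whether this barcode held 1 or several cells was not tested, beyond its not being called a doublet by Scrublet.

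With that cell, the collagen total of the class was 2507 CPM; without it, the total was 392 CPM (346 to 443). Col1a1 went from 676 to 21.2 CPM (11.6 to 35.6), Col1a2 from 650 to 7.58, Col3a1 from 249 to 21.2 and Col4a1 from 45.6 to 4.55 CPM. Of 14 chains, 12 were higher in Met-1 luminal than immune cells with the cell and 0 without it, where 2 were lower; 11% of 10067 genes were higher and 14.2% lower. What stayed in the 37 cells was Col11a1 at 65.2 CPM (47.2 to 87.8, in 9 cells), Col4a5 at 59.1 CPM (42.0 to 80.8), Col9a1 at 47.0, Col9a2 at 45.5, Col9a3 at 40.9, Col12a1 at 19.7 and Col4a6 at 18.2 CPM. Met-1 luminal cells without the 1 cell thus shared types IV (Col4a5, Col4a6), IX and XI with PyMT luminal cells, where Col11a1 stood at 21.3 CPM. Col4a1, the leading type IV chain of PyMT luminal cells, stood at 4.55 CPM (3 UMIs) in these 37 Met-1 cells.

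**Figure D5:**
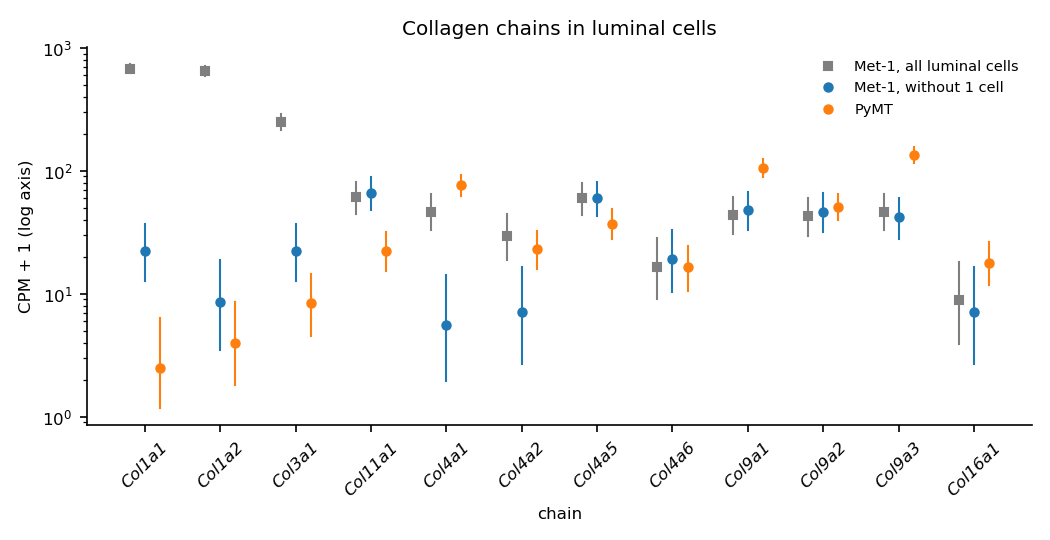
CPM + 1 of 12 chains (log axis) in luminal cells of PyMT, of Met-1 and of Met-1 without 1 cell, with 95% counting intervals as lines. Col1a1 and Col1a2 drop from 676 and 650 to 21.2 and 7.58 CPM when that cell is left out, and Col9a1, Col9a2, Col9a3 and Col4a5 stay near 40 to 60 CPM.

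Immune cells had the lowest collagen sum of the 5 classes, in the same chains that lead in fibroblasts. Collagen chains summed there to 183 CPM (2448 UMIs) in the Met-1 library and to 60.7 CPM (51.4 to 71.2, 150 UMIs) in the PyMT library. Met-1 lymphocytes alone stood at 223 CPM and Met-1 macrophages at 162 CPM. Of the 1154 lymphocyte collagen UMIs, 485 came from 1 cell, and without it lymphocytes stood at 130 CPM. The leading chains were Col3a1 at 34.3, Col1a1 at 30.6, Col1a2 at 24.9, Col14a1 at 13.3 and Col4a1 at 12.3 CPM. Of Met-1 lymphocytes, at a median of 5954 UMIs per cell, 17.6% had a Col1a1 UMI (3.67% after thinning to 1000 UMIs) and 18.2% a Col3a1 UMI (4.09%). A single cell of the lymphocyte class held 82 of the 164 immune Col4a1 UMIs, 49 of 92 Col4a2 and 34 of 104 Col5a2, and the Met-1 total was 266 CPM when barcodes called as doublets were kept.

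Col14a1 and Col27a1 differed between immune lineages. Col14a1 stood at 23.1 CPM (19.7 to 26.9, 167 UMIs) in Met-1 macrophages and 2.12 CPM (1.06 to 3.8) in lymphocytes, with thinned shares of 1.85% (1.04 to 3.03) and 0% (0 to 0.519) of cells. Col27a1 stood at 7.06 CPM (51 UMIs in 45 cells) in macrophages and 0.579 CPM (3 UMIs) in lymphocytes. By contrast Col1a1 stood at 38.4 CPM in lymphocytes, or 28.1 CPM without the top cell. The fibroblast list summed to 117 CPM in macrophages and 34.9 CPM in lymphocytes, and its part in the Col14a1 difference was not tested.

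Between the tumours, Clec3b-rich fibroblasts could be compared, though PyMT gave only 9 cells. The PyMT cells held 28977 CPM of collagen chains (27962 to 30019), of which 86.5% was fibrillar, beside 33006 CPM and 85.9% in Met-1. Col3a1 stood at 12670 and 12182 CPM (ratio 1.04, 0.983 to 1.10), Col1a1 at 7583 and 6148 CPM (1.23, 1.14 to 1.34) and Col14a1 at 1165 and 857 CPM (1.36). In both libraries Col3a1 exceeded Col1a1, by ratios of 1.67 and 1.98. Of 17 chains, 3 were higher and 2 lower in Met-1, where 16.6% and 5.01% of 3491 genes were. Of the 8 chains with 50 UMIs in both libraries, 0 were higher and 0 lower, so all 5 entered through 1 library only. With fibroblasts split at 1 UMI 3 chains were apart, and with a split by 3 genes each 2.

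The chains higher in Met-1 were Col4a1 (3.34-fold, 2.15 to 5.50), Col15a1 (2.29-fold) and Col18a1 (2.21-fold, 0.923 to 6.94, against 5 PyMT UMIs), and those lower were Col12a1 (2.50-fold, 1.44 to 4.16) and Col8a1 (2.33-fold, 1.27 to 4.03). Single cells weigh heavily among 9: 1 PyMT cell held 76.3% of the Col6a2, 54.4% of the Col6a1 and 41.0% of the Col1a1 UMIs. The tumour, the mouse and the library cannot be told apart in any Met-1 to PyMT comparison.

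In luminal cells, type IX was lower in Met-1 than in PyMT for 2 of its chains. Col9a3 was 2.93-fold (2.03 to 4.34) and Col9a1 2.45-fold (1.67 to 3.69) lower, while Col9a2 (ratio 0.834) was not apart. Of 11 chains, 7 were higher in Met-1 and 2 lower, where 6.31% and 6.82% of 3901 genes were. Without the 1 cell described above 0 were higher and 3 lower. The third was Col4a1, with 3 UMIs among 659926 in Met-1 against 103 among 1361204 in PyMT. As 0 chains had 50 UMIs in both libraries, each entered through the library where it is high. In immune cells 3 of 14 chains were higher in Met-1, and 0 lower, where 4.86% of 9947 genes were higher, 2.49% lower and 7.35% apart either way. They were Col1a1 (8.41-fold, 4.39 to 18.5), Col3a1 (6.52-fold) and Col1a2 (5.6-fold). Again 0 chains had 50 UMIs in both libraries, and with a pseudocount of 1 CPM 12 chains were apart. These 3 are also the chains most abundant in fibroblasts, which were 249 cells of the Met-1 and 11 cells of the PyMT library. The part of fibroblast RNA in these immune levels was not tested.

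Genes of collagen production, reception and fibril assembly were read as 3 further lists. Of 29 genes for biosynthesis and processing, 23 had enough UMIs between the fibroblast classes: 4 were higher in Tnc-rich cells and 2 lower, with a median log2 ratio of 0.45, beside 9.12%, 6.71% and 0.20 over all genes compared. P4ha3, a prolyl hydroxylase subunit, was 10.4-fold higher (5.86 to 20.5) and Loxl3, a lysyl oxidase that cross-links collagen, 4.74-fold higher. Pcolce2, an enhancer of procollagen C-propeptide cleavage, stood at 1.32 against 674 CPM and was 509-fold lower, and Loxl2 2.53-fold lower. The other 17 genes of this list were not apart. Among its 19 genes with 50 UMIs in both classes, 2 were higher and 1 lower, where 153 and 204 of 3271 genes were.

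Between pericytes and Tnc-rich fibroblasts, 22 of the biosynthesis genes could be compared, with 1 higher and 6 lower in pericytes, where 5.86% and 8.49% of all genes were. Among the 18 with 50 UMIs in both classes, 1 was higher and 2 lower, where 188 and 120 of 3691 genes were. Loxl2 was 3.74-fold higher, P4ha1 1.43-fold and not apart, Loxl1 14.2-fold lower and Lox, at 20.4 against 375 CPM, 18.4-fold lower.

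Of 11 receptor and uptake genes, 6 could be compared between the fibroblasts, with 4 higher in Tnc-rich cells and 1 lower (9.12% and 6.71% of all genes). Among the 4 with 50 UMIs in both classes, 3 were higher and 1 lower (153 and 204 of 3271 genes). The integrin subunits Itga1 (6.88-fold, 5.46 to 8.77), which binds collagens including type IV, and Itga10 (13.1-fold) were higher, Itga11 was not apart, and the collagen receptor kinase Ddr2 was 4.5-fold lower. In pericytes against Tnc-rich fibroblasts, 1 of 6 was higher and 3 were lower (5.86% and 8.49% of all genes). Among the 4 with 50 UMIs in both classes, 1 was higher and 1 lower (188 and 120 of 3691 genes). The median log2 ratio was -0.27 over the 6 and 0.78 over these 4. Itga1 was 2.95-fold higher, Ddr2 2.01-fold but not apart, Mrc2, which takes up collagen, 3.40-fold lower, and Itga11 stood at 0 against 27.4 CPM.

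Of 10 fibril-associated proteins, 8 could be compared between the fibroblasts, with 3 higher in Tnc-rich cells and 3 lower (9.12% and 6.71% of all genes). Among the 6 with 50 UMIs in both classes, 2 were higher and 2 lower (153 and 204 of 3271 genes). The small leucine-rich proteoglycans Fmod (16.2-fold) and Aspn (3.08-fold) were higher and Ogn 23.5-fold lower. Tnxb, a tenascin, stood at 0.44 against 1063 CPM. In pericytes 0 of 7 were higher and 5 lower than in Tnc-rich fibroblasts (5.86% and 8.49% of all genes), with Fmod at 0 against 54.3 CPM and Prelp at 0 against 95.8 CPM, while Aspn (0.913) and Sparc (0.667) were not apart. Among the 4 with 50 UMIs in both classes, 0 were higher and 2 lower (188 and 120 of 3691 genes).

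Over the 12 classes of at least 20 cells in either library, the genes outside the family whose log2(CPM + 10) followed Col1a1 most closely were Postn (Pearson's r 0.989), Sparc (0.988) and Fbn1 (0.986). For Col4a1 they were B230219D22Rik (0.986), Arhgap6 (0.985) and Sparcl1 (0.984), and for Col14a1 Fndc1 (0.983), Adam23 (0.978) and Pcsk5 (0.978). The classes share 2 libraries and differ in depth, and the values are a description.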

How the data were processed

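Droplet single-cell RNA was counted in 2 libraries, 1 from a Met-1 transplant and 1 from a PyMT tumour. The deposited values are UMI counts per gene and barcode, made by the authors with Cell Ranger 3.1.0 on mm10, per the submitters' processing notes. The annotation release, barcode filter and sequenced end were not given in the sources used here. Barcodes were kept here with at least 500 UMIs, 200 genes and at most 10% mitochondrial UMIs, and Scrublet calls (scanpy 1.11.5, 0.8% expected per 1000 barcodes, automatic threshold) were left out. This removed 339 Met-1 and 30 PyMT barcodes (23 and 1 called as doublets), leaving 19768692 and 4293854 UMIs.

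A class needed 10 UMIs per 10000 over its marker list, at least 2 of its genes, and 2 times every other list. Fibroblasts were split by at least 2 UMIs of Tnc or Clec3b and more than of the other. Immune lineages needed 5 per 10000, and the lymphocyte list holds Ebf1, which fibroblasts and pericytes also express. Counts were summed per class and divided by the class total (CPM). Intervals are exact Poisson for levels, exact conditional binomial for ratios and Clopper-Pearson for shares, all 95% and covering counting error only. The floor for a count of 0 was 3 UMIs. Shares of cells were thinned to 1000 UMIs. The ratio that sets chains apart used a pseudocount of 10 CPM. No test between conditions was possible with 1 library per group. The calling step was run on simulated counts, drawn by Poisson around class sums. Those counts hold no spread between cells, so the run does not cover single cells that dominate a class.

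All collagen chains could be named, with a value from 20 UMIs; some levels on fewer UMIs are printed beyond that rule. Of each pathway list, the 2 highest and 2 lowest genes of 2 comparisons were named, and 3 genes alike in pattern for each of 3 chains. Members and lists were chosen with earlier results of these data known. Promoters came from RefSeq (GRCm38.p6) and positions from GENCODE M21 on the same build. Python 3.11.15, numpy 2.4.6, scipy 1.17.1 and pandas 2.3.3 were used. Alternatives covered filters, doublet calls, marker thresholds, the fibroblast split, scaling, the pseudocount and single cells.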

Additional observations from a re-analysis of the deposited data

Results flagged for a closer look

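Collagen UMIs were also present in barcodes that entered none of the comparisons. The 34 Met-1 barcodes with markers of more than 1 class held 26460 CPM of collagen chains (25831 to 27100, from 6720 UMIs), led by Col1a1 at 4044 CPM, beside a collagen sum of 25889 CPM in pericytes. The 10 Met-1 barcodes with no class held 5420 CPM, of which 188 of 235 UMIs came from 1 cell. The 339 Met-1 barcodes left out by the filters held 9102 CPM. In PyMT, 13 barcodes of mixed markers held 572 CPM, 8 with no class 573 CPM and the 30 left out 690 CPM. These barcodes had no control cells of their own. For comparison, Met-1 lymphocytes held 223 CPM of collagen chains, or 130 CPM without 1 cell, and PyMT lymphocytes 23.1 CPM (7 UMIs). All 6 values lie above the level that a count of 0 allows, which pools of 45 to 9263 collagen UMIs could not fail to do.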

How the results depend on the processing

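With 1 library per tumour and 9 PyMT Clec3b-rich fibroblasts, the depth of a class limits its rare chains. No paired analysis was possible because each tumour has 1 library. The count of 13 chains apart between pericytes and Clec3b-rich fibroblasts ranged from 11 to 16 and stayed within 1.5 times in 16 of 16 alternatives. Requiring 50 UMIs in both classes leaves fewer chains to compare and gave 12 in place of 19 chains apart between the fibroblast classes, 11 in place of 21 between pericytes and Tnc-rich fibroblasts, 7 in place of 12 for Met-1 luminal over immune cells, and 0 for PyMT luminal over immune cells and for each comparison of Met-1 with PyMT; the remaining 15 alternatives left the first 2 counts within 1.5 times. For Met-1 luminal over immune cells the count of 12 became 2 with a marker dominance of 4 times, 7 with the mean of per-cell CPM, 0 without the top cell of each chain and 2 without the 1 luminal cell, an alternative added after seeing the data. For Met-1 over PyMT luminal cells the count of 9 became 3 under the dominance of 4 times, 3 without the top cells, 3 without the 1 cell and 15 with at least 20 UMIs. For Clec3b-rich fibroblasts the count of 5 became 3 with a split at 1 UMI, 2 with the split by 3 genes and 8 without the top cells. For immune cells the count of 3 became 12 with a pseudocount of 1 CPM, and for PyMT luminal over immune cells 4 became 10 with at least 20 UMIs.

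Reversed log2 ratios all lay in Met-1 luminal over immune cells. Both with the dominance of 4 times and without the 1 cell, Col1a1 went to -0.38, Col1a2 to -0.99, Col4a1 to -0.62, Col4a2 to -0.07, Col5a2 to -0.02, Col6a1 to -0.67, Col6a2 to -0.09, Col8a1 to -0.54 and Col14a1 to -1.02, and Col3a1 to -0.51 and -0.50. Without the top cell of each chain, Col1a1 went to -0.23, Col1a2 to -0.77, Col3a1 to -0.34, Col4a1 to -0.15, Col6a1 to -0.59 and Col14a1 to -1.0. With the mean of per-cell CPM, Col14a1 went to -0.10, and the cause was not tested. The Met-1 immune collagen total ranged from 146 to 266 CPM.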
